A study of Mus musculus with 13 samples.

Results

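Gene expression in the bladder was set against that in the urogenital sinus, the stretch of the lower urinary tract below it, in mouse embryos at embryonic day 14. The samples were the 3 arrays labelled bladder and the 4 arrays labelled urogenital sinus, chosen by those labels from 13 arrays. The genes described are those outside a list of 20 contractile smooth muscle genes. Of 15019 genes tested, 373 outside that list were called different between the regions. All embryos came from FVB/N females mated to SMGA/EGFP transgenic males. The transgene places a green fluorescent protein under the Actg2 (smooth muscle gamma-actin) promoter, and the labels name no treatment. The bladder was cut out as a fluorescent region, and the sinus as the stretch without fluorescence between bladder and urethra. Contractile genes are therefore built into the dissection, and their direction is not a finding. Theiler stage 21 is given for bladder replicate 2 and sinus replicates 1 and 2, and stage 22 for bladder replicates 6 and 8 and sinus replicates 6 and 7. The 3 urethra arrays (replicates 1 and 2 at stage 21, replicate 6 at stage 22), also cut by fluorescence, are given beside the comparison as a neighbouring region. Samples were not pooled and their sex is given as unknown. Whether regions were taken from different embryos is not stated in the labels, and p-values here reflect only how far these samples differ among themselves.

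Bladder and urethra both form around the endoderm of the urogenital sinus. Hedgehog signals from this epithelium act on the surrounding mesenchyme, which in the bladder forms the detrusor muscle. Lower down, the sinus lies beside the genital tubercle, whose mesenchyme uses Wnt, BMP and homeobox genes for outgrowth. The pelvic ganglia, which supply bladder and sinus with autonomic nerves, form from neural crest cells next to the sinus. Each sample is thus a mixture of epithelium, mesenchyme, muscle, vessels and, to differing degrees, nerve tissue.

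Levels are log2 signal intensities of 1 set of short probes per gene on Affymetrix MOE430 arrays. They can be compared between samples but not between genes. An intensity of 167.76 (7.39 on the log2 scale), the 40th percentile of the deposited table, was the filter level, and values under the 20th percentile were raised to the floor of 5.65. Replicates are listed in the order 2, 6 and 8 for the bladder, 1, 2, 6 and 7 for the sinus, and 1, 2 and 6 for the urethra. Differences are bladder minus sinus on the log2 scale, with the standard error (SE) from limma and p-values adjusted by the Benjamini-Hochberg method over all genes. Genes with an adjusted p under 0.05 are termed called. Fewer cells of a type and less RNA per cell cannot be told apart in such samples.

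The regions also differed in signal as a whole. Median intensity was 142 to 238 on the bladder arrays and 259 to 389 on the sinus arrays, without overlap, and 47.1% to 56.7% of probe sets against 57.8% to 67.0% exceeded the filter level. The median difference of all genes was -0.19, which became 0.03 after quantile normalization and 0.21 with each array centred on its median. Sinus replicate 1 stood apart: Hbb-bh1, an embryonic globin of red cells, reached 15.04 there against 8.44 to 10.51 on the other sinus arrays, and its mean correlation with its own region was the lowest, 0.889. On bladder replicate 8 the log2 ratio of 3' to 5' actin probe sets, a sign of shortened RNA, was 4.04 against 1.21 to 2.72 on the other 6 arrays. The same ratio for Gapdh did not single out this array. It was 4.26, 5.26 and 5.21 on the bladder arrays and 2.92, 3.90, 4.63 and 4.83 on the sinus arrays. Whether RNA quality contributed to the differences between regions was not tested. The part that sinus replicate 1 and bladder replicate 8 play was not tested beyond leaving them out. The labelled tissues carried their defining genes: the uroplakin Upk1b stood at 13.27, 13.24 and 12.70 in the bladder and 12.33, 12.70, 10.98 and 10.61 in the sinus, and the epithelial gene Epcam at 13.59 to 14.00 and 14.22 to 14.78. The contractile list, whose direction is built into the dissection, averaged 11.85 to 12.28 on bladder arrays against 9.92 to 11.04 on sinus arrays.

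In the limma fit 382 genes were called, 2.54% of those tested. Of these, 122 were higher in the bladder (0.812%) and 260 lower (1.73%), and 9 of the higher genes belonged to the contractile list. Among called genes 61 were at least 4-fold higher and 176 at least 4-fold lower. No called gene had overlapping groups. Bladder values did not overlap sinus values for 7.28% of all genes tested in the upward direction and for 10.6% in the downward direction. The split of the calls depended on scaling. Genes higher in the bladder made up 31.9% of the calls against an even split after quantile normalization (101 higher, 101 lower) and 63.4% with arrays centred on their medians (244 higher, 141 lower). The direction of all 106 called genes named below was the same under each of these scalings, but 63 stayed called under the former and 86 under the latter. The number of calls also rested on single arrays. It was 49, 46 and 193 without bladder replicates 2, 6 and 8, and 647, 132, 125 and 248 without sinus replicates 1, 2, 6 and 7. Of the 106 named genes, 26 stayed called without bladder replicate 2 and 23 without replicate 6. The number was 68 without bladder replicate 8, and 101, 51, 53 and 75 without sinus replicates 1, 2, 6 and 7. In all, 21 stayed called in each of these 7 fits, and the rest of the 106 lost their call in at least 1 of them. Directions were also the same for all 106 within stage 21 and within stage 22. The same held within the 2 styles of sample title with both regions, 1 of which had 1 array of each. With no overlap between the groups these directions were fixed beforehand, so they are no further check. No gene was called for a difference between stages in the regional effect (242 had an unadjusted p under 0.05, and the smallest adjusted p in limma was 1.00), with 1 bladder array at stage 21.

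**Figure D1:**
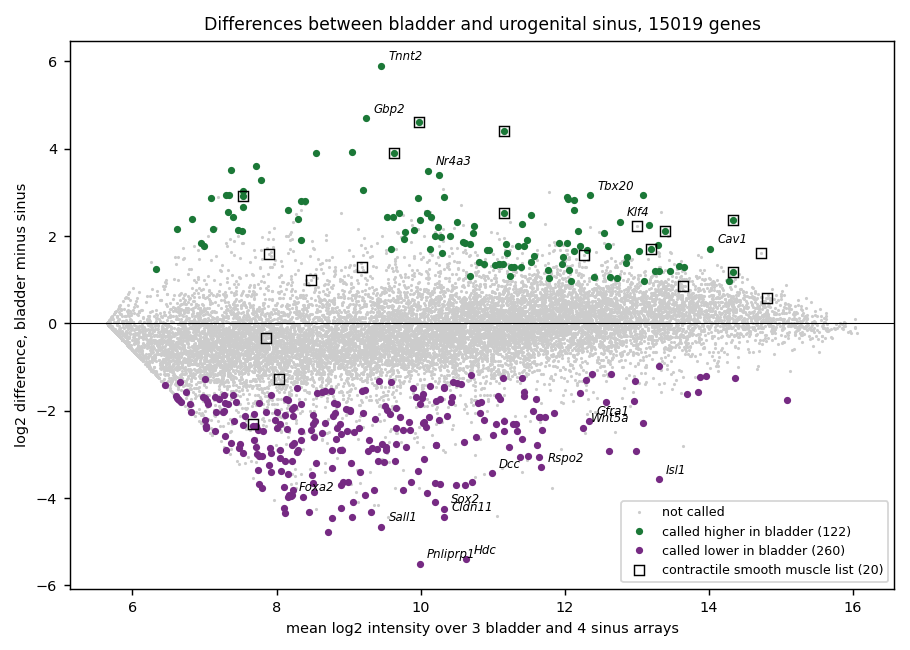
Log2 difference between bladder and urogenital sinus (vertical axis) against the mean log2 intensity over the 3 bladder and 4 sinus arrays (horizontal axis) for 15019 genes. Green points are the 122 genes called higher in the bladder, purple points the 260 called lower, grey points were not called, and open squares mark the contractile smooth muscle list. Purple points reach down to -5.50 (Pnliprp1), and green points up to 5.90 (Tnnt2).

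Among genes higher in the bladder, sarcomere proteins had the largest value. Tnnt2, the troponin T of the heart, stood at 13.28, 12.70 and 12.48 in the bladder, at 7.68, 5.97, 7.28 and 6.76 in the sinus, and at 7.41, 10.02 and 7.31 in the urethra. Every bladder array lay far above every sinus and urethra array. The difference was 5.90 (SE 0.67, adjusted p = 0.00409), or 59.8-fold, and 6.40 on the gene's other probe set. Myom1, which links thick filaments at the M-band of striated muscle, stood at 10.94, 11.23 and 11.70 in the bladder and at 7.29, 7.22, 6.86 and 8.12 in the sinus. Its groups did not overlap, and it was 15.1-fold higher (difference 3.92, SE 0.37, adjusted p = 0.00294). Both stayed called with any 1 array left out. They were the 2 called among 25 cardiac and striated sarcomere genes, a list whose median was 0.06. None of 19 skeletal muscle markers was called. Their median was -0.60, and 7 of them lay under the filter level on all 7 arrays. Of 17 receptors and ion channels of muscle 1 was called, the natriuretic peptide receptor Npr3 (1.69, SE 0.34, adjusted p = 0.0363), and it was called without sinus replicate 1 but in no other fit with an array left out. Its other probe sets gave -0.24 and 0.24, and the list median was -0.04, which turned to 0.38 and 0.36 under quantile normalization and median centring. The T-box factor Tbx20, best known from the heart, followed a gradient. It stood at 13.95, 14.22 and 13.91 in the bladder, 10.35, 11.50, 11.33 and 11.17 in the sinus and 6.33, 8.80 and 7.04 in the urethra. The 3 regions did not overlap, with differences of 2.94 from the sinus (SE 0.53, adjusted p = 0.0230) and, with the same probe set, 6.64 from the urethra (SE 0.56, adjusted p = 0.00174). Its other probe sets gave 0.61 and 1.81 against the sinus. The T-box factor Tbx2 was lower in the bladder by -1.60 (SE 0.35, adjusted p = 0.0457). It was called in 1 of the 7 fits with an array left out, and Tbx20 in 2 of them. The 8 remaining T-box genes were not called, and the median of the 10 was -0.57.

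Promoters were searched for the CArG box (CC, then 6 letters that are A or T, then GG, which reads the same on both strands), the letters bound by serum response factor in muscle genes. The windows ran from 250 bases before to 50 bases after each start listed for a gene in RefSeq on GRCm38.p6. A gene counted where any of its windows held the box, so genes with more listed starts had more chances. Of the 15019 genes, 12029 genes had at least 1 window. The box was found in 190 of these (1.58%), in 7 of 84 called higher outside the contractile list (8.33%) and in 1 of 192 called lower (0.521%). The 7 genes were Myom1, Cnn2, Eml1, Fhl1, Hopx, Rhoj and Stbd1, and the other was Cbr2. These shares are a description, and a match does not show binding. The bladder was cut out by Actg2-driven fluorescence, so muscle genes outside the contractile list can be built into the higher group too. The share among higher genes cannot be told apart from that dissection. The 250 bases before the start are shown for 3 of the 7, a sarcomere gene and a pair of regulators known from muscle, with the box in capitals.
Myom1: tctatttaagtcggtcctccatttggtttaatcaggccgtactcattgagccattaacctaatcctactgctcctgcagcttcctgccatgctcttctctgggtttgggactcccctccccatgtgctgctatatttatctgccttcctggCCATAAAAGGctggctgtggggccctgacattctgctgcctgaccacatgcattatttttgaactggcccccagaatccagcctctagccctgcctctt
Fhl1: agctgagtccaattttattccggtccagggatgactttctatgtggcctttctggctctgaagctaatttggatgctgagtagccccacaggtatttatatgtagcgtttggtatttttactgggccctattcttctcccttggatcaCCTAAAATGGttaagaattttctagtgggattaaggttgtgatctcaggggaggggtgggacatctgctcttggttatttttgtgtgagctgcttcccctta
Hopx: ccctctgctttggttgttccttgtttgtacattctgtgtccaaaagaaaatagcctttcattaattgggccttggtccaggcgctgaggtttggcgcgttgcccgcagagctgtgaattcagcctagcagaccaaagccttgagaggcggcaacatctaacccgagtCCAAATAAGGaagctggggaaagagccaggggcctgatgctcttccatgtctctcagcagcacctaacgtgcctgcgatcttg
The box began 99 bases before the start in Myom1 (chr17:71019307-71019556, + strand), 102 in Fhl1 (chrX:56779433-56779682, + strand) and 83 in Hopx (chr5:77115124-77115373, - strand). RefSeq listed 2 promoters each for Fhl1 and Hopx. These and the other box genes were picked after their values were seen. Fhl1, a LIM-domain protein of muscle, stood at 14.18, 14.32 and 14.50 in the bladder against 12.66, 13.05, 13.17 and 13.21 in the sinus (difference 1.31, SE 0.26, adjusted p = 0.0360). Hopx, a homeodomain-only cofactor that acts on serum response factor in the heart, stood at 11.29, 11.32 and 11.88 against 9.11, 9.49, 9.10 and 9.50 (2.20, SE 0.32, adjusted p = 0.0119). Bladder arrays lay above sinus arrays without overlap for both. Stbd1, a glycogen-binding protein, was higher by 1.67 (SE 0.23), the calponin Cnn2 by 1.51 (SE 0.31), the microtubule-binding Eml1 by 2.09 (SE 0.42) and the small GTPase Rhoj by 1.78 (SE 0.33). Cbr2, a carbonyl reductase, was at least 3.97-fold lower.

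Cav1 and Cavin2 encode coat proteins of the caveola, a membrane pit that is abundant in smooth muscle, and both were higher. Cav1 stood at 14.88, 15.03 and 15.07 in the bladder and 13.28, 13.13, 13.46 and 13.24 in the sinus. Bladder arrays were tightly grouped above all sinus arrays (1.71, SE 0.19, adjusted p = 0.00397), and the call held with any 1 array left out. Cavin2 stood at 14.70, 14.88 and 14.73 against 10.66, 12.15, 12.27 and 12.24, with sinus replicate 1 lowest (2.94, SE 0.51, adjusted p = 0.0211; called in 3 of the 7 fits with an array left out). In the urethra, also cut by fluorescence, Cavin2 stood at 9.92, 11.93 and 11.37 and Cav1 at 13.79, 13.51 and 14.16. The bladder was above the urethra by 3.69 for Cavin2 (limma adjusted p = 0.00902) and by 1.17 for Cav1 (limma adjusted p = 0.0170). Cav1 was listed among 12 mesothelial genes, a type it does not define, and the other 11 were not called. That list had a median of 0.39.

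The 25 largest increases included single enzymes of metabolism, which belong to no list tested here. Hsd17b2, which oxidises estradiol and testosterone to less active forms, was at 9.46, 8.77 and 7.96 in the bladder and at or near the floor on every other array (5.65, 6.22, 5.95 and 5.65 in the sinus, 5.65 in each urethra sample). Only bladder arrays lay above the filter level, so the change was at least 2.53-fold (adjusted p = 0.00450, called with any 1 array left out). Hpgd, which inactivates prostaglandins, stood at 11.58, 12.04 and 12.32 against 8.58, 9.54, 8.62 and 9.59 (2.90, SE 0.41, adjusted p = 0.0102). Cyp1b1, a cytochrome P450 of steroid and retinoid metabolism, stood at 13.59, 13.79 and 13.84 against 11.90, 9.90, 11.01 and 10.83 (2.83, SE 0.39, adjusted p = 0.0102). Its groups did not overlap, while its other probe sets gave 3.88 and -0.63. Pygl, the liver form of glycogen phosphorylase, stood at 13.61, 13.73 and 13.68 in the bladder, 9.15, 10.69, 11.37 and 12.10 in the sinus and 12.02, 12.96 and 13.03 in the urethra. Sinus arrays spread widely, all below the bladder and with replicate 7 level with the lowest urethra array. The difference was 2.84 (SE 0.59, adjusted p = 0.0390) and that from the urethra 1.00 (adjusted p = 0.342). Pdk4, a kinase that shuts down pyruvate dehydrogenase, was higher by 2.60 (SE 0.54, adjusted p = 0.0392) and Far2, a fatty acyl reductase, by 2.80 (SE 0.62, adjusted p = 0.0486). Pdk4 lost its call in each fit with an array left out, and Far2 and Pygl in 5 of 7.

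**Figure D2:**
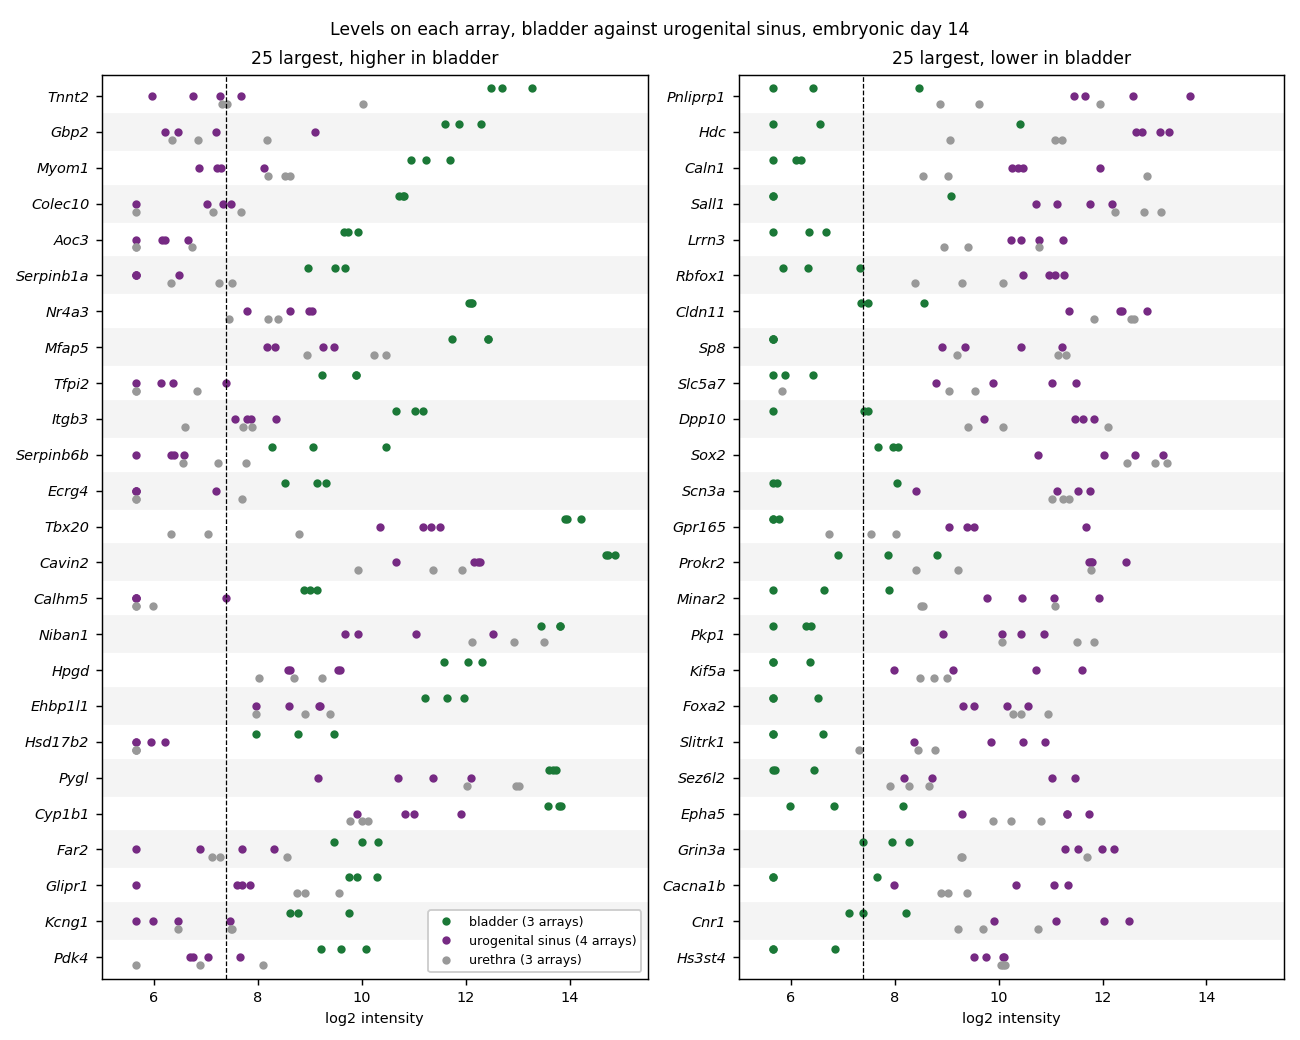
Log2 intensity on each array (horizontal axis) of the 25 genes with the largest increase (left) and the 25 with the largest decrease (right) in the bladder outside the contractile list. Each row is a gene, with bladder arrays in green, sinus arrays in purple and urethra arrays in grey, and the dashed line is the filter level of 7.39. Green points lie to the right of all purple points on the left panel and to the left of them on the right panel, and many bladder values on the right panel sit at the floor of 5.65.

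Other genes among the 25 largest increases also belong to no list. Serpinb1a, an inhibitor of neutrophil proteases, stood at 9.49, 9.67 and 8.96 in the bladder and at the floor on 3 sinus arrays, with 6.49 on replicate 2. It was at least 3.95-fold higher (adjusted p = 0.00387, called with any 1 array left out), and its other probe set gave 0.53. The related Serpinb6b was at least 3.65-fold higher (adjusted p = 0.0191) and Tfpi2, a Kunitz-type inhibitor laid down in matrix, at least 4.84-fold (adjusted p = 0.0102). The collectin Colec10, a secreted lectin, stood at 10.72, 10.81 and 10.79 against 5.65, 7.48, 7.03 and 7.32. Bladder arrays lay close together, and the difference was 3.90 (SE 0.56, adjusted p = 0.0111). Aoc3, a cell-surface amine oxidase of smooth muscle and vessels, stood at 9.74, 9.66 and 9.92 against 5.65, 6.21, 6.16 and 6.65. All sinus arrays lay under the filter level, and the change was at least 5.23-fold (adjusted p = 0.00294, called with any 1 array left out). The urethra arrays, at 6.74, 5.65 and 5.65, lay under the filter level too. Further genes were Ecrg4, a secreted peptide precursor (at least 3.03-fold, with 0.24 and 1.60 on its other probe sets), Calhm5, of a family of channel proteins (at least 3.07-fold), and Glipr1 (2.79, with 0.21 on its other probe set), whose urethra values of 8.90, 9.56 and 8.75 lay close to those of the bladder. Kcng1, a subunit that modifies potassium channels (2.66), Ehbp1l1, a partner of Rab8 (2.87), and the stress-responsive Niban1 (2.90) complete the 25 together with the genes named below.

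Interferon-induced genes were represented by Gbp2, a GTPase that acts against intracellular pathogens. It stood at 12.30, 11.60 and 11.87 in the bladder, 9.09, 6.21, 7.19 and 6.46 in the sinus and 8.17, 6.85 and 6.35 in the urethra. Sinus replicate 1 was the highest of the sinus arrays and still lay below the bladder (4.69, SE 0.69, adjusted p = 0.0119, or 25.8-fold), with 3.95 from the other probe set. It stayed called in 5 of 7 fits with an array left out. It was 1 of 29 called in its list, whose median was 0.05, and its probes can also bind related genes. Of 27 immediate early and stress genes 2 were called, and both stayed called with any 1 array left out. The orphan nuclear receptor Nr4a3 stood at 12.07, 12.13 and 12.11 against 9.04, 7.80, 8.99 and 8.61 (3.49, SE 0.38, adjusted p = 0.00387). Klf4, a zinc finger factor of epithelial and smooth muscle cells, stood at 13.96, 14.31 and 14.01 against 11.62, 11.12, 11.96 and 12.35 (2.33, SE 0.29, adjusted p = 0.00572), with 0.73 from the other probe set. Bladder arrays lay above all sinus arrays for both. The remaining 25 members were not called, and the list median was 0.05.

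The extracellular matrix differed in both directions. Mfap5, a microfibril protein that binds elastic fibres, stood at 11.74, 12.42 and 12.43 in the bladder and 8.33, 8.18, 9.46 and 9.26 in the sinus (3.39, SE 0.47, adjusted p = 0.0101), and Lum, a proteoglycan that spaces collagen fibrils, at 14.15, 14.51 and 14.71 against 11.32, 12.44, 13.23 and 11.80 (2.26, SE 0.42, adjusted p = 0.0268). For both genes the lowest bladder array was above the highest sinus array. In the same list of 41 proteoglycan, elastic fibre and matricellular genes the basement membrane protein Nid2 was also higher (1.29), while Matn2, a matrilin (-2.72, SE 0.45, adjusted p = 0.0175), and Smoc1, a secreted modulator of BMP signals (-1.71, SE 0.29, adjusted p = 0.0187), were lower. With arrays centred on their medians 7 were higher and 1 lower. Its median was -0.08, and 0.09 and 0.32 under quantile normalization and median centring. Of 30 collagens 1 was higher, Col16a1 (1.28, SE 0.26, adjusted p = 0.0373), and 1 lower, the transmembrane collagen Col23a1. The latter stood at 7.79, 7.91 and 8.65 against 11.72, 12.54, 11.89 and 10.90 (-3.65, SE 0.43, adjusted p = 0.00450) and was called with any 1 array left out. Centring the arrays gave 5 collagens higher. Of 41 integrins, laminins and matrix proteases 2 were higher. Itgb3, the integrin beta-3 chain, stood at 11.02, 11.17 and 10.65 against 8.35, 7.79, 7.86 and 7.55 (3.06, SE 0.39, adjusted p = 0.00630), and the gelatinase Mmp9 at 11.61, 10.39 and 11.02 against 8.92, 8.59, 8.60 and 8.16 (2.44, SE 0.38, adjusted p = 0.0150). Neither overlapped, and Itgb3 stayed called with any 1 array left out, Mmp9 in 6 of 7 fits. Of the other matrix genes, Mfap5 was called in 6 of these 7 fits, Smoc1 in 3, and Lum, Matn2 and Col16a1 in 2 each. Smoc1 was called neither after quantile normalization nor with arrays centred.

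Cell cycle and DNA replication genes had a list median of 0.44 (0.41 and 0.84 under quantile normalization and median centring) against -0.19 for all genes, with 27 of 34 members above 0. The mean of the list was 12.79 to 12.95 on the bladder arrays and 12.38 to 12.62 on the sinus arrays. Only Aurkb, a kinase of mitosis and cytokinesis, was called (1.06, SE 0.19, adjusted p = 0.0224), and in 4 of 7 fits with an array left out. Groups did not overlap upwards for 13 of the 34, and for 7.28% of all genes tested.

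Transcription factors of the genital tubercle and sinus mesenchyme were lower in the bladder: 11 of 23 were called, none higher, and the list median was -1.87. All 23 values lay below 0, as did 61.8% of all genes tested. Groups did not overlap for 12 of them, and for 10.6% of all genes tested in this direction. Sall1, a zinc finger factor of genital and renal mesenchyme, stood at 5.65, 5.65 and 9.09 in the bladder, 10.72, 11.76, 11.12 and 12.18 in the sinus and 13.12, 12.80 and 12.24 in the urethra. It was at the floor on 2 bladder arrays, with replicate 8 between these and the sinus (-4.65, SE 0.78, adjusted p = 0.0186). Sp8, which maintains outgrowth signals in epithelium, was at the floor on all 3 bladder arrays and at 8.91, 10.43, 9.36 and 11.21 in the sinus, at least 6.01-fold lower (adjusted p = 0.0121). Isl1, a LIM homeobox factor of tubercle mesenchyme and of autonomic neurons, stood at 10.58, 10.53 and 12.67 against 14.93, 14.90, 14.89 and 14.61 (-3.57, SE 0.50, adjusted p = 0.0102). Bladder replicate 8 was again the highest bladder array and lay below the sinus. Among AP-2 factors, which act in neural crest and ectoderm, Tfap2a differed by -2.78 (SE 0.39, adjusted p = 0.0102) and Tfap2b by at least 3.27-fold (adjusted p = 0.0119). Dlx2, a homeobox factor known from neurons and facial mesenchyme, was at least 2.44-fold lower (adjusted p = 0.0111), and the urethra values of 6.89, 6.72 and 6.69 were as low as those of the bladder. The others called were Sall4 (-3.67), Eya1 (-3.07), Six2 (-2.91), Six4 (-2.47) and Msx1 (-1.55). Six2 and Six4 bind DNA together with the coactivator Eya1. The number called was 6 after quantile normalization, 9 with arrays centred, 12 without sinus replicate 1, 10 without bladder replicate 8, and 0 without bladder replicate 2 or bladder replicate 6.

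Homeobox and Sox factors gave fewer calls. Sox2, a factor of endodermal progenitors and of neural cells, stood at 8.06, 7.97 and 7.68 in the bladder, 10.75, 12.63, 12.02 and 13.17 in the sinus and 13.01, 12.47 and 13.24 in the urethra. No bladder array came near the other regions, and the call held with any 1 array left out (-4.24, SE 0.50, adjusted p = 0.00450). Sox6 (-1.98) and Sox11 (-1.58) were lower as well, which made 3 of 14 Sox genes, with a median of -0.57. Sox6 and Sox11 were each called in 1 of 7 fits with an array left out. None of 7 HoxB genes was called (in limma 6 had an unadjusted p under 0.05), although all 7 were below 0 and 6 did not overlap, with a median of -1.65. Of all genes tested, 61.8% were below 0 and 10.6% were lower in the bladder without overlap. Hoxb3, a HoxB gene of anterior position, had the smallest p at -2.31 (SE 0.55, adjusted p = 0.0588). Hoxd11, a posterior HoxD gene of the genital region, was the 1 of 7 HoxD genes called and was at least 1.47-fold lower (adjusted p = 0.0452). It was called in none of the fits with an array left out. HoxA (median -0.45) and HoxC genes (-1.15) had 0 of 7 called each, with the smallest p at Hoxa3 (-1.50, SE 0.71, adjusted p = 0.311) and Hoxc10 (-1.81, SE 0.50, adjusted p = 0.0960). Irx2, an Iroquois factor, was called among 18 Iroquois, LIM and POU factors. It stood at 6.78, 6.94 and 6.40, then 7.88, 8.83, 8.26 and 9.16, and 10.26, 10.68 and 11.15 in the urethra, a rise from bladder through sinus to urethra without overlap (at least 2.21-fold lower than the sinus, adjusted p = 0.0429). Foxf2, a forkhead factor of gut and bladder mesenchyme, had the same order: 9.74, 9.73 and 9.83, then 10.56, 11.78, 10.76 and 11.49, and 12.72, 12.99 and 12.66 (-1.38, SE 0.31, adjusted p = 0.0486). It was the 1 of 25 bladder and gut mesenchyme factors called. That list's median of -0.32 turned to 0.07 with arrays centred on their medians. Irx2 and Foxf2 were each called in 1 of 7 fits with an array left out.

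**Figure D3:**
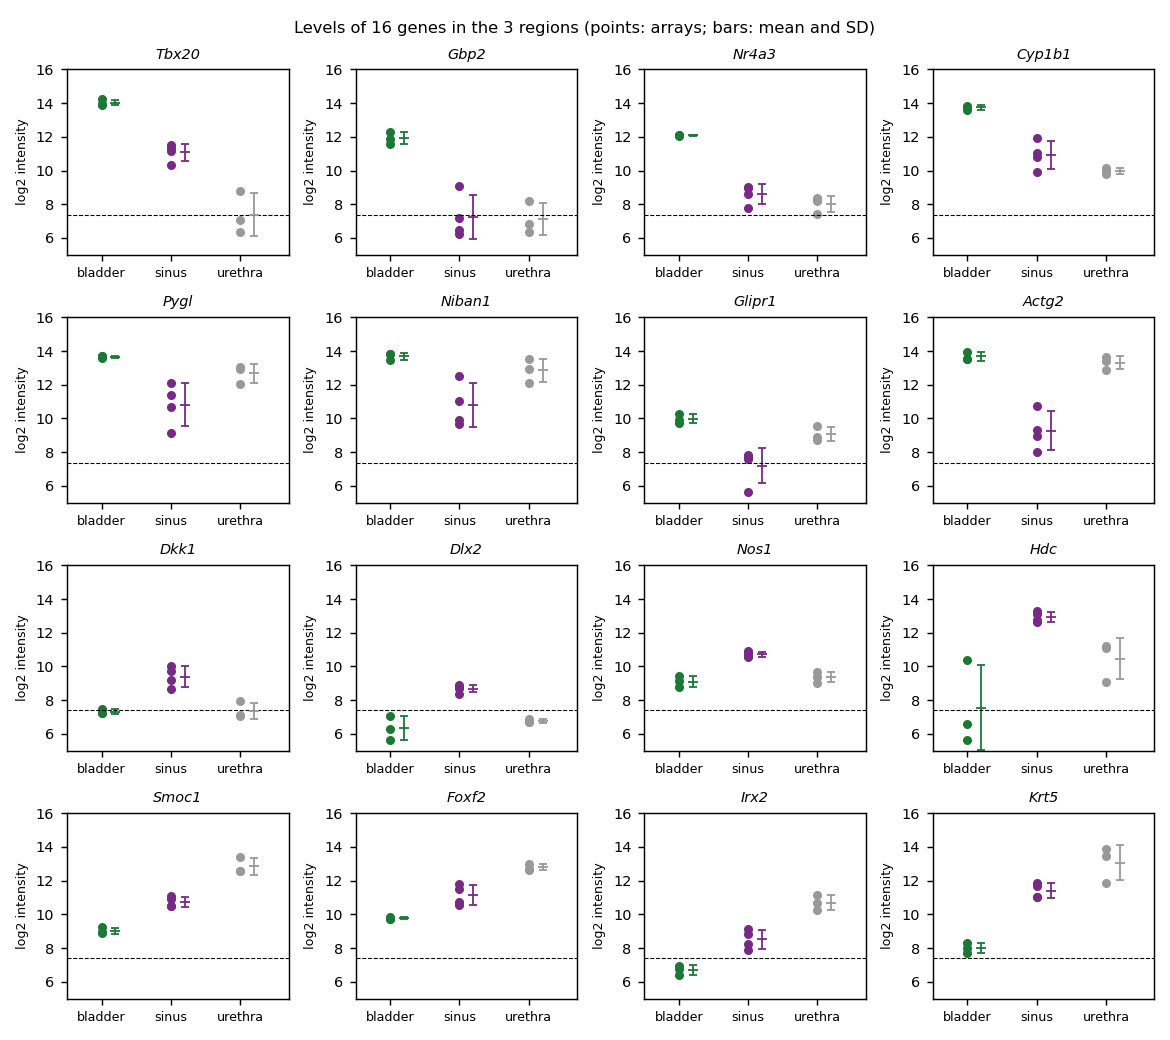
Log2 intensity of 16 named genes in bladder, urogenital sinus and urethra. Points are arrays, bars beside them give the mean and SD of the region (3, 4 and 3 arrays), and the dashed line is the filter level of 7.39. Tbx20 falls from bladder to urethra, Smoc1, Foxf2, Irx2 and Krt5 rise, Pygl, Niban1 and Glipr1 have their lowest mean in the sinus, and Dkk1, Dlx2 and Nos1 their highest.

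In the Wnt lists 1 of 14 ligands and 4 of 35 modulators and targets were lower and 0 higher, with medians of -0.63 and -0.98. Wnt5a, a ligand of outgrowth and of non-canonical signalling, stood at 10.39, 10.64 and 11.65 in the bladder and 13.17, 13.12, 13.27 and 13.56 in the sinus (-2.39, SE 0.35, adjusted p = 0.0114). Its receptor Ror2 stood at 10.93, 10.04 and 10.30 against 13.06, 12.64, 12.60 and 11.94 (-2.14, SE 0.31, adjusted p = 0.0114). Both were separated from the sinus on every array. The secreted Wnt agonist Rspo2 stood at 9.10, 9.53 and 10.73 against 13.36, 12.64, 12.74 and 13.57 (-3.29, SE 0.41, adjusted p = 0.00583) and was called with any 1 array left out, while its other probe set gave -0.38. Dkk1, a Wnt antagonist, was higher in the sinus than in both neighbours, with 7.47, 7.23 and 7.22 in the bladder, 8.66, 10.03, 9.20 and 9.73 in the sinus and 7.13, 7.93 and 7.04 in the urethra (-2.10, SE 0.39, adjusted p = 0.0281). It was called in 1 of 7 fits with an array left out, as was the Wnt receptor Fzd3 (-1.17, with -1.25 to 0.26 on its other probe sets). Of the 35, 7 were lower without sinus replicate 1 or bladder replicate 8, 1 without bladder replicate 6, and 2 without any other single array.

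In the BMP and TGF-beta pathway 2 of 36 were lower, the ligand Bmp7 (-1.80, SE 0.36, adjusted p = 0.0357) and the antagonist Chrdl1 (at least 3.36-fold, adjusted p = 0.0152). Bmp7 was called in 2 of 7 fits with an array left out, and neither after quantile normalization nor with arrays centred. Chrdl1 was called in 5 of the 7 fits and not after quantile normalization. The list median was -0.20, and 0.19 with arrays centred on their medians. Hedgehog genes had 0 of 14 called, with a median of -0.26 that turned to 0.14 on centring. Shh, the ligand made by sinus epithelium, stood at 13.90, 14.24 and 14.24 against 15.38, 14.98, 14.61 and 15.42 (-0.97, SE 0.28, adjusted p = 0.108, and 0.0309 after quantile normalization). Its groups did not overlap, but the difference did not pass the test. FGF genes had 0 of 22 called (median -0.75; smallest p at the FGF target Etv5, -1.09, SE 0.35, adjusted p = 0.148). Of 23 Notch genes the repressor Hes7 was called lower (adjusted p = 0.0347; list median -0.41). All its bladder arrays were at the floor and its sinus mean of 7.38 lay under the filter level, so it has no measured fold. Of 17 retinoic acid genes 1 was called, Crabp1, a cytoplasmic carrier of retinoic acid (at least 4.37-fold lower, adjusted p = 0.0150; list median -0.85). Of 20 genes of the IGF axis 2 were called, both binding proteins of IGF. Igfbp2 stood at 8.02, 7.83 and 8.98 against 11.34, 12.46, 11.23 and 10.50 (-3.10, SE 0.45, adjusted p = 0.0111) and Igfbp5 at 14.41, 13.64 and 14.20 against 16.86, 15.36, 15.62 and 15.48 (-1.75, SE 0.37, adjusted p = 0.0409). The sinus was above the bladder on every array for both, and Igfbp5 stayed called in 1 of 7 fits with an array left out. This list's median of -0.09 turned to 0.31 with arrays centred. Among 13 steroid hormone receptors and responders Greb1, an estrogen-induced gene (-2.83, SE 0.51, adjusted p = 0.0235), and the orphan receptor Nr2f1 (-1.67, SE 0.34, adjusted p = 0.0388) were lower, and the median was -0.42. Greb1 was called in 3 of 7 fits with an array left out and Nr2f1 in 1.

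Ligands and receptors of the PDGF, Kit, GDNF, neurotrophin and endothelin families had 1 of 24 higher and 4 lower, with a median of -0.80. Gfra1, the receptor of GDNF in enteric and pelvic neurons, stood at 10.62, 10.85 and 11.71 against 13.58, 13.48, 13.08 and 13.01 (-2.23, SE 0.28, adjusted p = 0.00584; called with any 1 array left out). Ntrk2 and Ntrk3, receptors of neurotrophins, differed by -2.15 (SE 0.33, adjusted p = 0.0123) and -3.62 (SE 0.58, adjusted p = 0.0159). The other probe sets of Ntrk3 gave -4.02 to 0.18. The chemokine Cxcl12 was at -1.79 (SE 0.39, adjusted p = 0.0445), with -1.16 and -0.32 on its other probe sets. Its call was lost under both other scalings, with the mean of its probe sets (-1.09, adjusted p = 0.202) and in 5 of 7 fits with an array left out. Bdnf, the ligand of Ntrk2, had the opposite direction, at 10.86, 11.47 and 11.36 in the bladder against 9.96, 9.40, 8.87 and 10.20 (1.62, SE 0.35, adjusted p = 0.0452). The call of Bdnf was lost after quantile normalization and without bladder replicate 8. Bdnf was thus higher where Ntrk2 was lower, with no overlap of the groups for either gene, and a link between them was not tested. Dcc, the netrin receptor that steers axons, stood at 8.63, 9.23 and 9.20 against 12.21, 12.32, 12.18 and 13.12 (-3.43, SE 0.29, adjusted p = 0.00294), with sinus replicate 7 highest, and was called with any 1 array left out. In its list of 41 semaphorins, slits, netrins and their receptors 5 were lower and 0 higher (median -0.74): besides Dcc these were Sema4f (adjusted p = 0.0152), Plxnc1 (-1.72), Sema6a (-1.33) and Sema3c (-1.31). Of these, Sema4f was called in 4 of 7 fits with an array left out, Plxnc1 in 3 and Sema6a in 1. Of 19 ephrins and Eph receptors Epha5 (-3.92, SE 0.66, adjusted p = 0.0187) and Efnb2 (-1.25, SE 0.27, adjusted p = 0.0430) were lower, and the median was -1.05. Epha5 was called in 3 of 7 fits with an array left out and not after quantile normalization. Efnb2 was called in none of them and not with arrays centred on their medians.

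Neuronal genes were lower in the bladder, and how many were called depended on sinus replicate 1. Of 32 pan-neuronal genes 5 were lower and 31 lay below 0, with the lowest list median, -2.85. Averaged over the list, bladder arrays lay at 7.57 to 8.57, with 8.25 on sinus replicate 1, and 11.95, 11.69 and 10.58 on replicates 2, 6 and 7. Sinus replicate 1 thus lay within the range of the bladder for this list. Without it 21 of the 32 were lower and the median was -3.87. The number was 3 without sinus replicate 7 and 1 without any other single array, and 1 after quantile normalization. Of 31 autonomic ganglion genes 6 were lower, and all 31 lay below 0 (median -2.02), as did 61.8% of all genes tested. The list mean was 7.86 to 8.55 in the bladder against 8.71 on sinus replicate 1, just above it, and up to 11.08 on the others. Without sinus replicate 1 the number lower was 18, without bladder replicate 2 or 6 it was 0, without bladder replicate 8 or sinus replicate 2 it was 3, without sinus replicates 6 and 7 it was 2 and 5, and after quantile normalization 2. Of 38 ion channels and synaptic proteins 10 were lower (median -1.19), and 12 without sinus replicate 1. The number fell to 2 without bladder replicate 2, bladder replicate 6 or sinus replicate 6, to 3 without sinus replicate 2, to 4 without sinus replicate 7, and to 3 after quantile normalization. Whether this array held less ganglion tissue was not tested.

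Rbfox1, a neuronal splicing regulator, did not follow that array. It stood at 5.85, 6.34 and 7.34 in the bladder, 10.96, 11.25, 11.09 and 10.46 in the sinus and 8.39, 10.09 and 9.29 in the urethra, and was called with any 1 array left out (at least 11.7-fold lower, adjusted p = 0.00387; other probe sets gave -3.76, -1.17 and -0.51). Lrrn3, a leucine-rich repeat protein of neuronal membranes, behaved likewise, with 6.35, 5.65 and 6.68 against 10.24, 11.24, 10.43 and 10.78 (at least 9.73-fold, adjusted p = 0.00387), and so did the calcium channel subunit Cacna2d3 (at least 5.76-fold, adjusted p = 0.00387). For these 3 genes sinus replicate 1 lay with the other sinus arrays. Dcx, a microtubule protein of young neurons, showed the other pattern, with 7.51, 7.06 and 8.80 in the bladder and 9.92, 12.59, 12.09 and 11.06 in the sinus (-3.63, SE 0.74, adjusted p = 0.0381). Slc5a7, the choline transporter of cholinergic neurons, was at 5.65, 5.88 and 6.43 against 8.80, 11.03, 11.49 and 9.90 (at least 7.55-fold lower, adjusted p = 0.0407). Sinus replicate 1 was the lowest sinus array for both. Further pan-neuronal calls were Elavl3 (-3.70, with -0.67 on its other probe set), Mapt (-3.19, with -3.01 to -0.39) and L1cam (-2.78). Elavl3 and Mapt encode a neuronal RNA-binding protein and the microtubule protein tau, and L1cam an adhesion molecule of axons. Autonomic calls besides Slc5a7, Isl1 and the transcription factor Gata3 were Sst (-2.24), the peptide somatostatin, Chrnb4 (at least 1.58-fold lower), a ganglionic nicotinic receptor subunit, and Nos1 (-1.62, SE 0.28, adjusted p = 0.0209), the neuronal nitric oxide synthase. Nos1 stood at 8.78, 9.11 and 9.42 in the bladder, 10.82, 10.90, 10.60 and 10.56 in the sinus and 9.04, 9.39 and 9.66 in the urethra, so that the sinus was above both neighbours. Of the 7 fits with an array left out, Nos1 and Sst were called in 3 each, Elavl3 in 2, and Dcx, Slc5a7 and Mapt in 1 each. None of these genes was called after quantile normalization, and Nos1 was not called with arrays centred either.

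Channel and synapse genes were led by Caln1, a calcium-binding protein (at least 10.3-fold lower, adjusted p = 0.0313), Dpp10, a potassium channel subunit (-4.31, SE 0.76, adjusted p = 0.0222), the sodium channel Scn3a (-4.23, SE 0.84, adjusted p = 0.0347), the calcium channel Cacna1b (-3.86, SE 0.80, adjusted p = 0.0394) and the cannabinoid receptor Cnr1 (-3.82, SE 0.63, adjusted p = 0.0174). Of the 7 fits with an array left out, Caln1 was called in 1, Dpp10, Scn3a and Cacna1b in 2 each, and Cnr1 in 4. None of them stayed called after quantile normalization. Scn9a, Gria1 and Gria2 complete the 10 with Lrrn3 and Cacna2d3. Others among the 25 largest decreases were Kif5a, a neuronal kinesin (at least 5.53-fold), Slitrk1 (at least 5.69-fold) and Sez6l2 (at least 5.49-fold), both neuronal membrane proteins, Grin3a, a glutamate receptor subunit (-3.88), Gpr165 (at least 5.74-fold), Minar2 (-4.08), Prokr2, the prokineticin receptor (-4.08), and Hs3st4, a heparan sulfate sulfotransferase (at least 5.56-fold). The last stood at 5.65, 6.86 and 5.65 against 9.76, 10.08, 10.11 and 9.52, with 10.09, 10.12 and 10.05 in the urethra, and was called with any 1 array left out. Of 17 neural crest and Schwann cell genes only Tfap2a was called, with a list median of -1.05, 4 lower without sinus replicate 1 and 0 without bladder replicate 2 or 6. Prox1, a factor of lymphatic endothelium that is also made by neurons, was the 1 of 18 endothelial markers called (-3.15, SE 0.70, adjusted p = 0.0486), while the endothelial median was 0.20. Prox1 was called in 1 of 7 fits with an array left out.

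**Figure D4:**
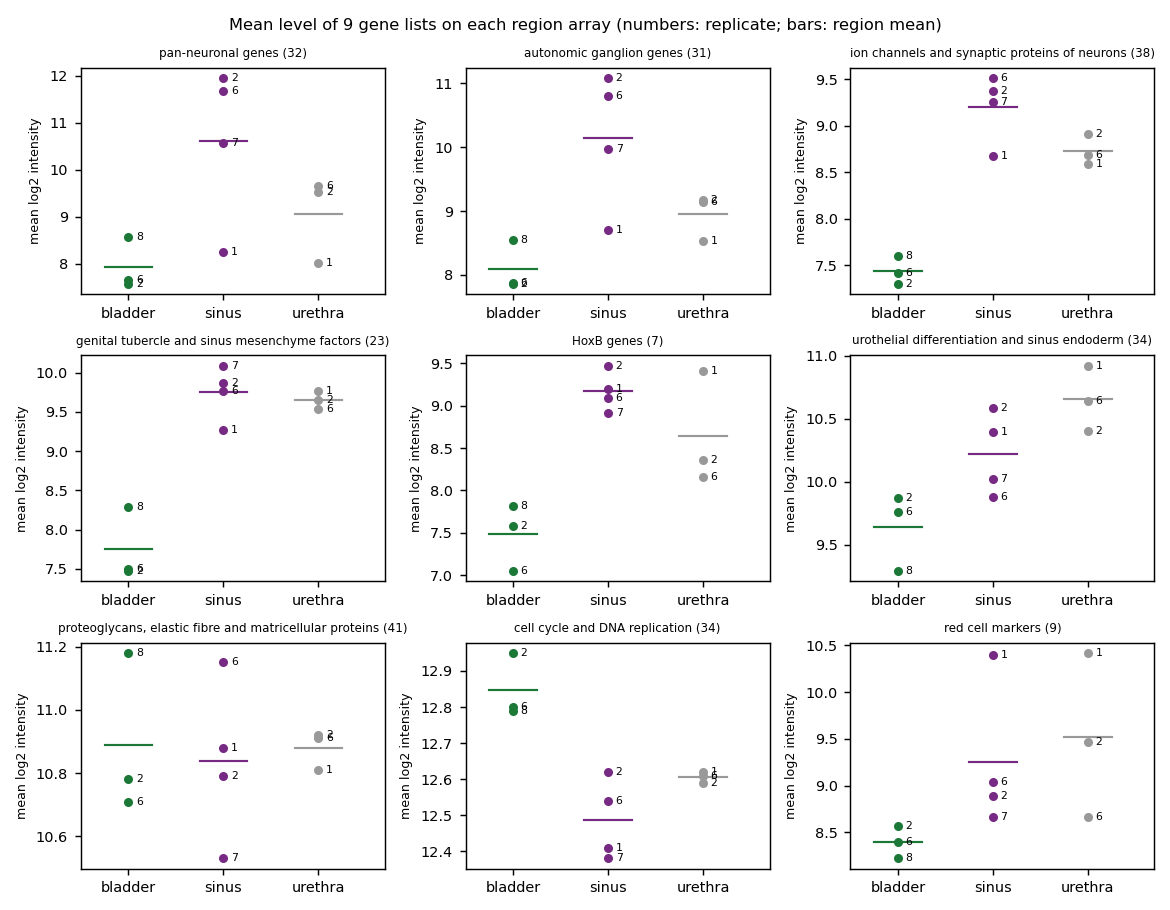
Mean log2 intensity of 9 gene lists on each array of bladder, sinus and urethra, with the number of tested members in brackets, the replicate number beside each point and a bar at the region mean. For pan-neuronal and autonomic genes sinus replicate 1 lies near the bladder arrays and replicates 2, 6 and 7 above them, while for tubercle factors and HoxB genes all sinus arrays lie above all bladder arrays. Red cell markers are highest on sinus replicate 1 and urethra replicate 1.

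Of 34 urothelial and sinus endoderm genes 5 were lower in the bladder, 0 were higher and 29 were not called. The list median was -0.42, and -0.23 and -0.02 under quantile normalization and median centring. Krt5, a keratin of basal epithelial cells, stood at 7.74 to 8.32 in the bladder, 11.03, 11.87, 11.03 and 11.71 in the sinus and 13.87, 11.89 and 13.47 in the urethra, rising in that order (-3.39, SE 0.46, adjusted p = 0.00908). Foxa2, a forkhead factor of endoderm, was at 5.65, 6.53 and 5.65 against 10.16, 10.57, 9.31 and 9.53 in the sinus and 10.95, 10.44 and 10.27 in the urethra. Bladder arrays all lay under the filter level, and the gene was at least 5.66-fold lower (adjusted p = 0.00387, called with any 1 array left out). Gata3, a factor of basal urothelium, ducts and sympathetic neurons, stood at 10.24, 10.22 and 10.38 against 12.79, 13.29, 12.41 and 12.41 (-2.44, SE 0.35, adjusted p = 0.0111). Sox2 and Grhl2 (-1.45), a factor of epithelial junctions, complete the 5. The epithelial genes Krt8 (-0.09, adjusted p = 0.945) and Upk1b (1.42, adjusted p = 0.236), the latter used in the check of the labels, were not called. 

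Junction genes had 2 lower and 1 higher of 36 (median -0.61). Cldn11, a claudin of tight junctions in testis and myelin, stood at 7.35, 7.48 and 8.56 in the bladder, 11.35, 12.38, 12.85 and 12.33 in the sinus and 12.55, 11.83 and 12.61 in the urethra. Bladder arrays were all lower than the rest, and the call held with any 1 array left out (-4.43, SE 0.42, adjusted p = 0.00294, or 21.5-fold). Pkp1, a desmosome protein of stratified epithelium, was at least 6.43-fold lower (adjusted p = 0.0102). Dsc2, a desmosomal cadherin, was higher, at 11.27, 12.02 and 12.43 against 9.44, 9.53, 10.04 and 10.35 (2.07, SE 0.37, adjusted p = 0.0230), though its other probe set gave -0.12. Cornified envelope genes of the epidermis differed in opposite directions, Lor at -2.06 (SE 0.34, adjusted p = 0.0176) and Ivl at 2.12 (SE 0.46, adjusted p = 0.0454), in a list of 14 with a median of -0.32, or 0.08 with arrays centred. Lor was called in 3 of 7 fits with an array left out and Ivl in 1.

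Hdc, which makes histamine, and the pancreatic lipase relative Pnliprp1 had the largest decreases. Hdc stood at 6.57, 5.65 and 10.41 in the bladder, 12.76, 12.64, 13.28 and 13.10 in the sinus and 11.21, 11.09 and 9.06 in the urethra. Bladder replicate 8 was far above the other bladder arrays and below the sinus (-5.40, SE 0.99, adjusted p = 0.0255; -3.65 on the other probe set). It was the 1 called of 17 macrophage and mast cell markers (median -0.54). The mast cell genes Cpa3 and Cma1, picked after their values were seen, were not called. Cpa3 stood at 7.66 to 8.10 in the bladder against 7.18 to 9.51 in the sinus, and Cma1 at 5.65 to 6.82 against 6.92 to 7.62. Cma1 was thus lower in the bladder without overlap, like Hdc, but near or under the filter level. Whether mast cells account for the Hdc values was not tested. Pnliprp1 stood at 5.65, 6.43 and 8.47 against 13.68, 12.58, 11.67 and 11.45 (-5.50, SE 0.89, adjusted p = 0.0160). Every sinus array lay far above every bladder array. Hdc was called in 2 of 7 fits with an array left out and Pnliprp1 in 4. Other cell types gave few calls. Red cell markers had 0 of 9 called. All 9 lay below 0 (median -0.71), as did 61.8% of all genes tested. Their list mean was 10.40 on sinus replicate 1 and 8.22 to 8.57 in the bladder. Slc4a1, the anion exchanger of red cells, had the smallest p (-1.43, SE 0.92, adjusted p = 0.438). Of 11 nephric, gonadal and duct markers Nr0b1, a nuclear receptor of gonad and adrenal, was called (at least 2.21-fold lower, adjusted p = 0.0400; list median -0.83). That call held in 1 of 7 fits with an array left out. The lists for cartilage and bone (0 of 12, median -0.41; smallest p at Col2a1, adjusted p = 0.0708), intestine (0 of 10, -0.29, or 0.11 on centring; Isx, adjusted p = 0.332) and liver (0 of 13, -0.45; Alb at -2.01, adjusted p = 0.281) had no calls. Col2a1 and Isx lay under the filter level on all bladder arrays. Among skeletal muscle markers Myog had the smallest p (adjusted p = 0.160), with all bladder arrays under the filter level and a bound of at least 2.87-fold.

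**Figure D5:**
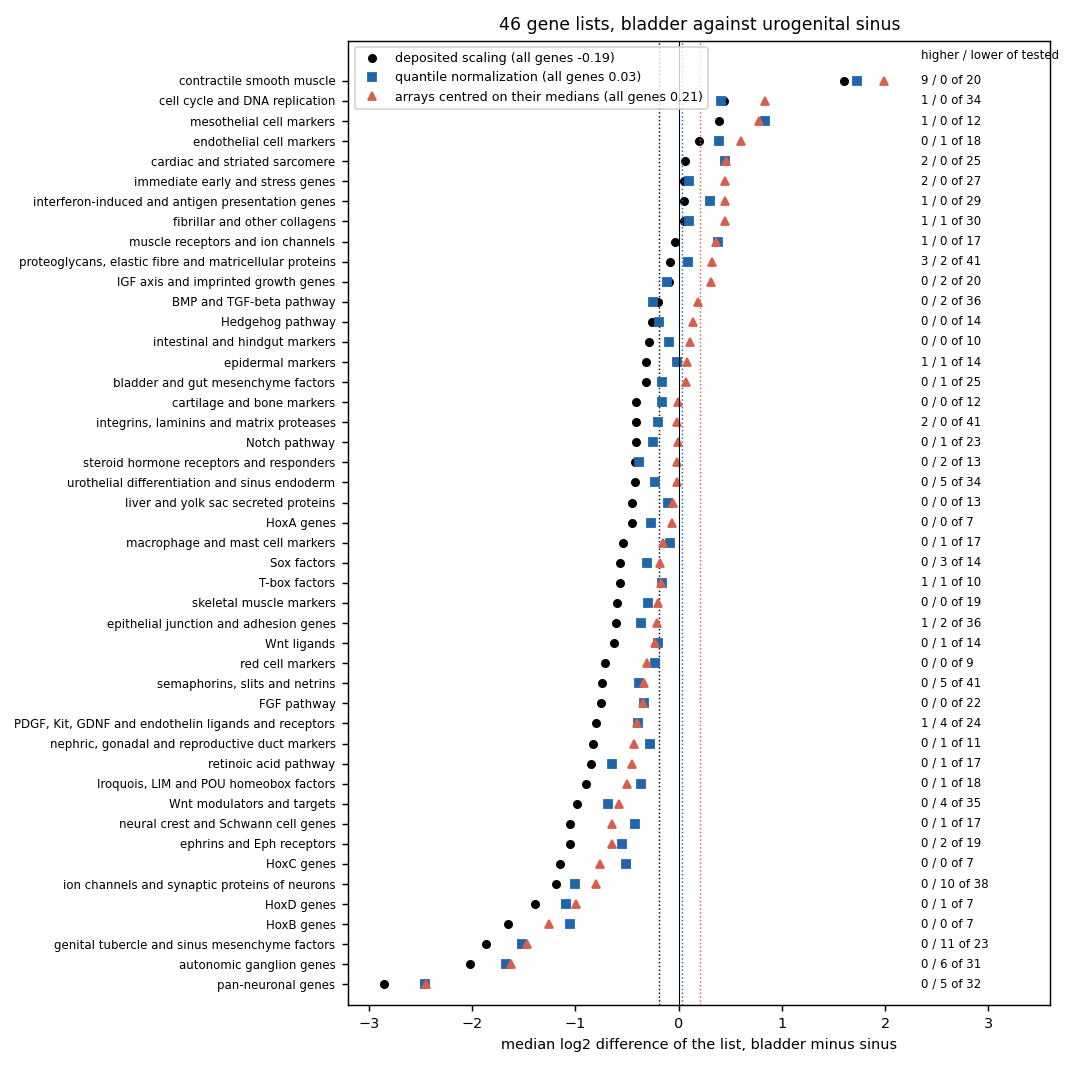
Median log2 difference, bladder minus sinus (horizontal axis), of 46 gene lists under the deposited scaling (black circles), quantile normalization (blue squares) and median centring (red triangles), with dotted lines at the median of all genes under each. Numbers at the right give members called higher and lower of those tested. Contractile genes lie highest, at 1.60, and pan-neuronal genes lowest, at -2.85.

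The urethra was set beside the comparison, with the same bladder arrays. Against the urethra 257 genes were higher in the bladder (1.71%) and 394 lower (2.62%), and the median of all genes was -0.25. Of the 122 genes higher than in the sinus 68 were also called higher than in the urethra, and of the 260 lower genes 134 were also lower. Because both comparisons share the bladder arrays, these overlaps are only given as counts. Actg2 itself was at 13.97, 13.51 and 13.55 in the bladder, 8.99, 9.31, 7.99 and 10.77 in the sinus and 12.89, 13.65 and 13.40 in the urethra, with no bladder value far from the urethra (difference 0.36, adjusted p = 0.724). Of the tubercle factors 10 of 23 were lower than in the urethra, and of the endoderm genes 12 of 34. Among them Sox2 differed by -5.00 (adjusted p = 0.00230), Krt5 by -5.06 (adjusted p = 0.00174), Tfap2a by -4.34 (adjusted p = 0.00174), and Sall1, with 2 bladder arrays at the floor, by -5.92 (adjusted p = 0.00756). Sp8, at the floor on all bladder arrays, was also called lower (adjusted p = 0.00771). Pan-neuronal genes had 1 higher and 1 lower of 32 and a median of -1.14 against the urethra.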

How the data were processed

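RNA from microdissected bladder, urogenital sinus and urethra was amplified, labelled with biotin and hybridised to Affymetrix MOE430 arrays, per the labels' protocols. The deposited table holds linear signal intensity values per probe set. The authors made them with GCOS, per the submitters' processing notes, with version and settings not given in the sources used. Intensities were raised to the 20th percentile of the table (50.23) and log2 transformed, with no further scaling; the deposited intensity values, not counts, set the scale, and the number of arrays limits the precision. A probe set was kept where at least 3 of 13 arrays exceeded the 40th percentile (167.76), which 1305 genes did only through the 3 arrays of reference RNA. Of 45037 probe sets 34945 had 1 gene symbol, 932 several and 9160 none, and only the first kind was used. Each of 15019 genes was represented by its brightest probe set on average.

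Region means over 10 region arrays, which share 1 estimate of the spread (7 residual degrees of freedom), were modelled in limma 3.58.1 under R 4.3.3, using an intensity trend, and p-values were adjusted by the Benjamini-Hochberg method. The scripts were tested on simulated data. Where all arrays of a group lay under the filter level, the fold is given as a bound against that level ("at least"), and a gene below it there has no measured level.

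Named genes are the 25 with the largest difference in each direction among called, non-overlapping genes outside the contractile list, up to 4 called members of each of 46 lists (for a list with none, the member with the smallest p), and Actg2. Other called list members given with a value, the genes with a promoter motif and the genes of the label checks were chosen after their values were seen. The members and lists were chosen with earlier results of these data known. Alternatives changed the scaling, floor, filter, probe set rule, limma settings, covariates, blocks and arrays.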

Additional observations from a re-analysis of the deposited data

Results flagged for a closer look

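Among the 4 sinus arrays, 13 of 162 genes and list means tested had 1 array whose gap to the nearest other array passed Dixon's 95% critical value. Chance flags about 1 in 20 such groups, but for Calhm5, Ecrg4 and Serpinb1a the other 3 arrays were all raised to the floor, which fixes the ratio, so the count cannot be read against that rate. Sinus replicate 1 was low for the caveolar gene Cavin2 (10.66, against 12.15 to 12.27 on the other arrays), for Nr2f1 (11.56, against 12.28 to 12.40) and for Glipr1 (5.65, against 7.60 to 7.84). Sinus replicate 2 was high for Caln1 (11.95, against 10.25 to 10.46) and Prokr2 (12.46, against 11.73 to 11.80), and was the 1 array above the floor of 5.65 for Calhm5 (7.38) and Serpinb1a (6.49). Sinus replicate 6 was the 1 array above the floor for Ecrg4 (7.20). Sinus replicate 7 was low for Col16a1 (10.13, against 10.90 to 11.01), Hes7 (6.58, against 7.54 to 7.73), Ntrk3 (9.54, against 10.79 to 11.02) and Isl1 (14.61, against 14.89 to 14.93), and high for Dcc (13.12, against 12.18 to 12.32). Each array that stood out still lay on the same side of all bladder arrays as the rest of the sinus. All 13 genes were called, and no called gene had overlapping groups, so this was fixed beforehand. No list mean was among the 13.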

How the results depend on the processing

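All 106 named called genes kept their sign under every setting that tested them (101 with the filter at the 60th percentile). In fits that only left arrays out, the lack of overlap between the groups fixed the sign beforehand. The number of calls, 382, varied. It was 202 after quantile normalization, 235 with no filter on low values, 198 with the probe set of largest spread, 2668 with array weights and 236 with the bladder and sinus arrays alone, and the cause was not tested. It ranged from 46 to 647 with 1 array left out. Added after seeing the data, leaving out sinus replicate 1 and urethra replicate 1 gave 766 calls, and leaving out bladder replicate 8 as well gave 576. The other settings gave 272 to 507. The 651 calls against the urethra became 400 after quantile normalization. The stage interaction had 0 calls, and 11 with no filter on low values. With the title number as a replicate block there were 132 calls, and 44 of the 106 named genes stayed called. Only numbers 2 and 6 were shared between the regions (correlations of deviations 0.24 and 0.15), so that pairing was not established. Values near the floor limit how far low levels can be ordered: in 92 called genes all bladder arrays lay under the filter level, and in 15 all sinus arrays.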

Other observations

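Groups of called genes outside the lists are given here as values, picked after these were seen. Among genes higher in the bladder were further muscle-linked genes: Jph2, which couples surface membrane to calcium stores (2.36 on the log2 scale), Mrvi1 (2.27), a target of cyclic GMP kinase, Ppp1r12b (1.83), a myosin phosphatase subunit, and Tgfb1i1 (1.69). Single genes of cell division were Cip2a (2.52), Ncapg2 (1.85), E2f8 (1.77), Anln (1.65), Kif23 (1.07) and Racgap1 (0.97). Metabolic enzymes and regulators were Hsd11b1 (at least 1.96-fold), which forms active glucocorticoid, Klf15 (2.13) and Pfkfb3 (2.00). The caveolar Cavin1 was at 1.09. Cav2 (2.07, limma adjusted p = 0.0552) and Cavin3 (1.79, limma adjusted p = 0.0981) did not pass.

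Among genes lower in the bladder were sialyltransferases, St8sia2 (-3.06), St6galnac5 (-2.75), St8sia3 (-2.50) and St8sia1 (-2.45). Peptides and receptors included Rxfp1 (-3.66), the relaxin receptor, Htr3a (-2.05), a serotonin receptor, Sstr4 (-2.66) and Nts (-2.61), and, with all bladder arrays under the filter level, Htr4 (at least 3.49-fold lower), Tshr (at least 2.65-fold), Cckar (at least 1.66-fold) and Pyy (at least 1.32-fold). Transcription factors outside the lists were Vax1 (-3.81), Foxd2 (-3.16), Cux2 (-3.04), Shox2 (at least 1.75-fold lower), Dach1 (-1.78) and Foxc1 (-1.47). A second pancreatic lipase relative, Pnliprp2, was at least 3.82-fold lower. Among guanylate-binding proteins other than Gbp2, Gbp6 (2.53, limma adjusted p = 0.106), Gbp7 (2.07, limma adjusted p = 0.0854) and Gbp3 (2.03, limma adjusted p = 0.194) were not called.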
